A study of Mus musculus with 9 samples.

Results

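The transcripts described here are the products of the epithelial cells that line the gut: enterocyte, goblet, enteroendocrine and crypt genes. They are 39 genes, named by symbol and chosen for where they are known to be expressed, out of 22180 genes tested. Each was read from the array row that carries its symbol alone, or from the row of highest mean where a gene has several. Purified γδ T cells of the C57BL/6 strain were profiled on Affymetrix Mouse Gene 2.0 ST arrays, which read RNA with probes along each transcript. IELs are γδ T cells from the epithelium of the small intestine (3 arrays). Type-1 cells (3 arrays) and Naive-like cells (3 arrays) are γδ T cells from peripheral lymph nodes. No mutation, treatment, age or sex is given for any group, and it is not stated if the cells of an array were pooled from several animals. The titles name the arrays as biological replicates, and p-values measure their spread. Tissue and subset differ together wherever IELs are compared, so the effects of tissue and of subset cannot be told apart.

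A single sheet of epithelium lines the intestine and is renewed from stem cells in the crypts. Its progeny become absorptive enterocytes, which digest and take up nutrients through a brush border, or secretory cells: goblet cells that make mucus, enteroendocrine cells that release hormones, Paneth cells and tuft cells. Intraepithelial lymphocytes lie between these cells. Transcription factors of the CDX and HNF4 families drive many enterocyte genes, and most of the genes described below are known as epithelial and not as T-cell genes.

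T-cell markers were read first. Of 10 markers listed for γδ T cells, 4 had a row of 1 symbol: Ptprc, Cd3d, Cd3e and Cd3g. The listed genes of the γδ receptor itself, among them Trdc, had none, so the γδ label was not checked. Cd3g, a chain of the T-cell receptor complex, measured 11.70, 12.32 and 11.97 on the IEL arrays, against 11.27, 11.05 and 10.69 on the Type-1 and 11.52, 11.20 and 11.64 on the Naive-like arrays. Cd3e measured 11.48, 11.97 and 11.71 in IELs, against 10.34, 10.62 and 10.89 in Type-1 and 11.28, 10.06 and 11.19 in Naive-like cells. Neither fell under 10.06 on any array, and of the 4 markers Cd3g passed, against Type-1 cells (0.99 ± 0.23, adjusted p = 0.0269 in limma). In each IEL comparison 3 of the 4 were higher in IELs and 1 was lower. The lower one differed by -0.33 against Type-1 and -0.26 against Naive-like cells and did not pass. All values are log2, as the authors deposited them, so a difference of 1 is a 2-fold ratio. Levels of different genes come from different probes and are not compared with each other.

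Many of the epithelial transcripts were higher in IELs, and none passed the test as lower. Against Naive-like cells 23 of 39 were higher and 0 lower, while 3.57% of all genes were higher, 1.62% lower and 5.19% either (limma, Benjamini-Hochberg adjusted over 22180 genes, threshold 0.05). Against Type-1 cells 19 of 39 were higher and 0 lower, beside 3.73%, 1.41% and, for either direction, 5.14% of all genes. The median difference of the 39 was 1.41 against Naive-like and 1.29 against Type-1 cells, beside -0.01 and -0.03 over all genes. In both comparisons 18 were higher (2.7% of all genes), 24 in either and 15 in neither. These comparisons share the IEL arrays. Where a pair of differences, adjusted p or counts follows, it is against Type-1 and then against Naive-like cells. In 23 of 39 all 3 IEL arrays lay above all 6 lymph node arrays, as they did in 6.51% of all genes. In RNA from a cell suspension, fewer cells of a type and less RNA per cell cannot be told apart.

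The mean level of the 39 transcripts was 5.13, 5.90 and 5.15 on the IEL arrays, against 4.12, 4.11 and 3.93 on the Type-1 and 4.04, 4.10 and 3.89 on the Naive-like arrays. Every IEL array lay above every lymph node array, and IEL replicate 2 was the highest. No filter on dim genes was applied. A filter on the mean over all 9 arrays, at the 40th percentile of genes (4.10), would keep 26 of the 39, and 12 of these 26 have a lymph node mean under it, so that they pass through the IEL arrays.

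**Figure D1:**
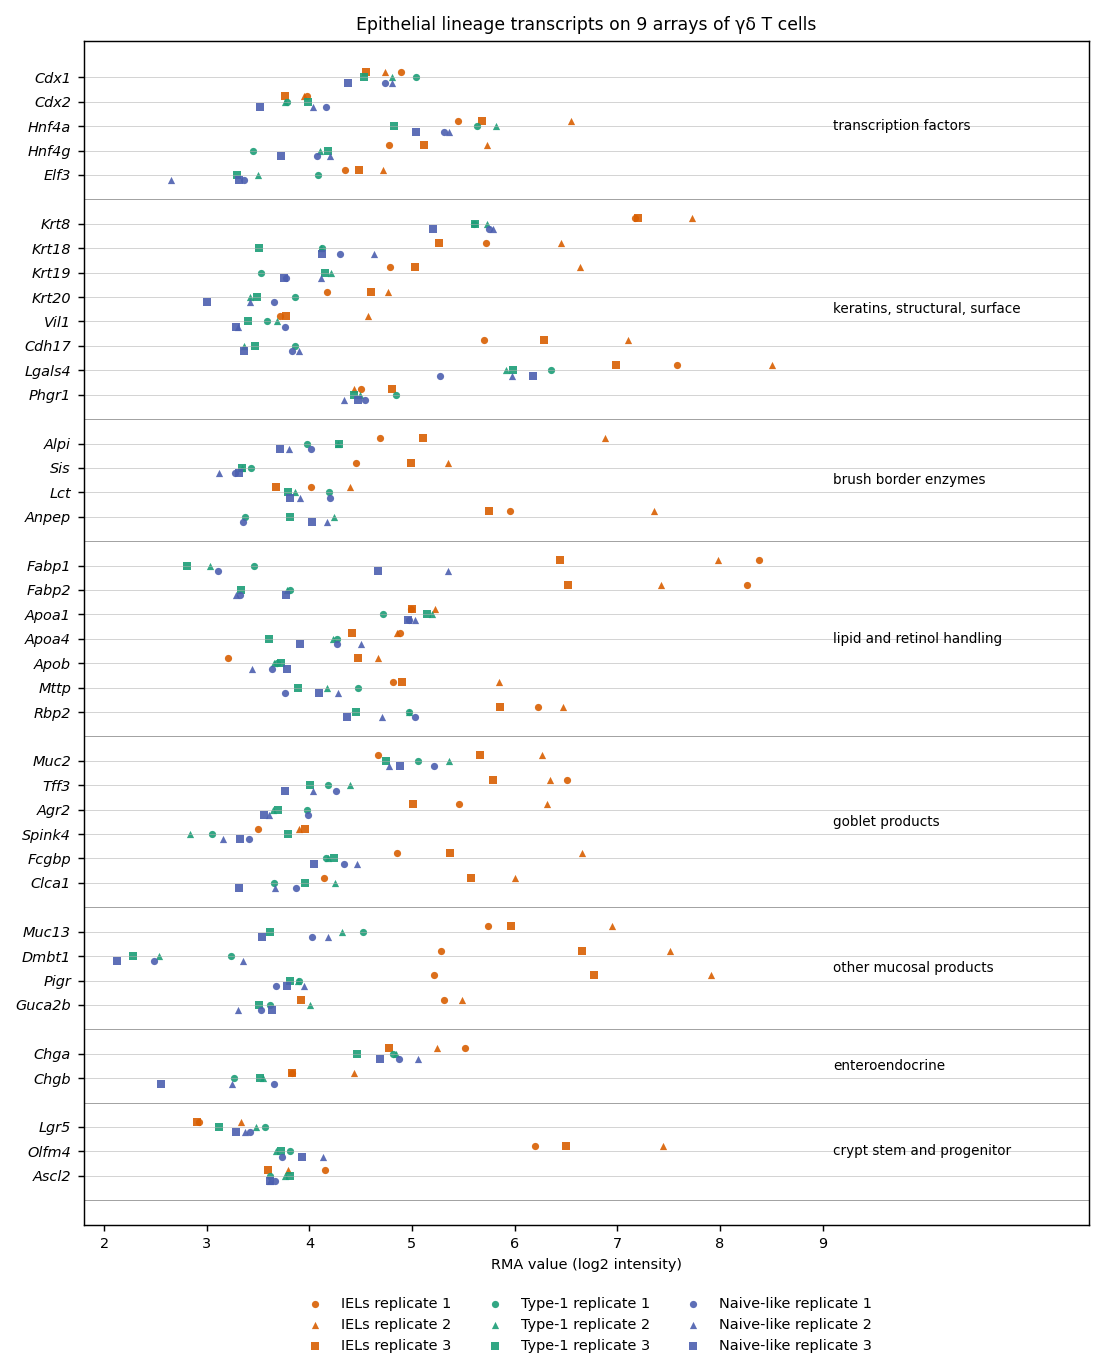
Level of each of the 39 transcripts (log2, deposited values) on the 9 arrays, ordered by role, with IELs (orange), Type-1 (green) and Naive-like cells (blue) one above the other and a marker shape for each replicate number. Fabp1, Fabp2, Dmbt1 and Olfm4 stand far apart between IELs and lymph node cells, while Cdx1, Cdx2, Lct and Apoa1 do not.

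Promoter sequence was read for the members, since CDX and HNF4 factors are known to act on enterocyte promoters and 18 of the 39 transcripts were higher in IELs in both comparisons. Windows from 250 bases before to 50 after the start were available for 30 of 39 members (32 windows, RefSeq, GRCm38.p6). Both strands were searched for AAAGTCC, a core of the HNF4 motif, and for TTTATNG, a CDX-type motif. AAAGTCC occurred in 4 of the 32 windows, of the 3 members Alpi, Muc13 and Rbp2, and in 4.21% of all 32851 windows. TTTATNG occurred in 8 windows, of Agr2, Alpi, Apob, Fabp1, Fabp2, Krt20, Rbp2 and Sis, and in 10.9% of all windows. In Alpi, Apob, Krt20 and Rbp2 the match reads CTATAAA on 1 strand, with its first base at -33, -61, -30 and -16 from the start. These letters hold TATAAA, the sequence of a TATA box, so they do not tell a CDX-type motif from one. No match of one motif overlapped one of the other in these windows. A match describes these letters and not a bound site. The members without a window are Cdx1, Hnf4g, Krt19, Cdh17, Tff3, Clca1, Spink4, Dmbt1 and Lgr5. The 3 windows below, each 5′ to 3′ on the gene's strand with the matches in capitals, are those of a fatty acid binding protein with 3 CDX-type matches, a brush border phosphatase with a match to each motif and a disaccharidase with 1 CDX-type match. They lie at chr6:71199629-71199928 (plus strand) for Fabp1, chr1:87101557-87101856 (minus strand) for Alpi and chr3:72967814-72968113 (minus strand) for Sis.
Fabp1: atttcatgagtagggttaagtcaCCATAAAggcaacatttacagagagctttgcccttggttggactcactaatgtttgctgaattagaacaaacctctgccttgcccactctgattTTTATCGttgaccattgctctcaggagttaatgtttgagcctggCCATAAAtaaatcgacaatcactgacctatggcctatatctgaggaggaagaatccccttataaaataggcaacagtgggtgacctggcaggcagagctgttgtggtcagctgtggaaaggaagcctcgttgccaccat
Alpi: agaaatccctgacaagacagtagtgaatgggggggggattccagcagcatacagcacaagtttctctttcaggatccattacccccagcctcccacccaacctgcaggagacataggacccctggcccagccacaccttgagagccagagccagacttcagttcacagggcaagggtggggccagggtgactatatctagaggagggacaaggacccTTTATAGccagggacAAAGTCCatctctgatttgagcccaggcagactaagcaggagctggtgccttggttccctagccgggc
Sis: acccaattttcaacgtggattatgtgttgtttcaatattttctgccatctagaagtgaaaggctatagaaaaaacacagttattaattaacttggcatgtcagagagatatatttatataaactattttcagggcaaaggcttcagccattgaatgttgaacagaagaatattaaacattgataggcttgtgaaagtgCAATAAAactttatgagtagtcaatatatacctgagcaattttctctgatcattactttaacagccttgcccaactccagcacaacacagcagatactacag

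Of the 5 transcription factors, 1 was higher in IELs in both comparisons and 1 against Naive-like cells only. Hnf4g, a nuclear receptor of the enterocyte, measured 4.77, 5.73 and 5.12 in IELs, against 3.45, 4.11 and 4.18 in Type-1 and 4.07, 4.20 and 3.72 in Naive-like cells. Its lowest IEL array lay above its highest lymph node array. It was higher by 1.29 ± 0.28 (SE, n = 3 arrays per subset) than in Type-1 cells, adjusted p = 0.0178 in limma, and by 1.21 ± 0.28 than in Naive-like cells, adjusted p = 0.0248. Elf3, an ETS factor of differentiating epithelium, measured 4.35, 4.71 and 4.49 in IELs, against 4.08, 3.50 and 3.30 in Type-1 and 3.37, 2.65 and 3.31 in Naive-like cells. Its IEL arrays also lay above all lymph node arrays. The difference was 1.41 ± 0.26 against Naive-like cells (adjusted p = 0.00587), and 0.89 ± 0.26 against Type-1 cells did not pass (adjusted p = 0.0802). On the 6 arrays without a code that replicate 3 of every subset shares in its sample description, the first was 1.53 and did not pass (adjusted p = 0.0646).

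Hnf4a, Cdx1 and Cdx2 did not pass. Hnf4a, the paralogue of Hnf4g, measured 5.44, 6.55 and 5.68 in IELs, against 5.63, 5.82 and 4.82 in Type-1 and 5.32, 5.36 and 5.04 in Naive-like cells. Only IEL replicate 2 lay above all of its lymph node arrays, and the differences were 0.47 ± 0.32 and 0.65 ± 0.32 (adjusted p = 0.528 and 0.39). Cdx2, the homeobox factor that specifies intestinal identity, measured 3.98, 3.95 and 3.76 in IELs, against 3.78, 3.76 and 3.99 in Type-1 and 4.16, 4.04 and 3.51 in Naive-like cells. Cdx1, its relative, measured 4.89, 4.73 and 4.56 in IELs, against 5.04, 4.81 and 4.53 in Type-1 and 4.74, 4.81 and 4.38 in Naive-like cells. For both CDX genes the 3 subsets overlapped. Hnf4g lost its call against Naive-like cells without IEL replicate 2 or 3 or Naive-like replicate 1 or 3 (adjusted p up to 0.113), and against Type-1 cells without IEL replicate 2 or 3 or Type-1 replicate 1 (up to 0.0841). On the arrays without the description code it also lost both calls (adjusted p = 0.246 against Naive-like and 0.0999 against Type-1 cells in limma).

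Keratins and other structural or surface genes were higher in 6 of 8 cases against each lymph node subset, the same 6 genes, with median differences of 1.56 against Type-1 and 1.53 against Naive-like cells. Cdh17, a cadherin of the intestinal epithelium, measured 5.70, 7.11 and 6.28 in IELs, against 3.86, 3.36 and 3.47 in Type-1 and 3.83, 3.90 and 3.36 in Naive-like cells. Every IEL array was far above the lymph node arrays. This difference was the largest of the role, 2.80 ± 0.32 against Type-1 (adjusted p = 0.000177) and 2.67 ± 0.32 against Naive-like cells (adjusted p = 0.000228), ratios of 6.98 and 6.36.

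Krt8 and Krt18 are the partner keratins of simple epithelia. Krt8 measured 7.17, 7.73 and 7.20 in IELs, against 5.60, 5.73 and 5.61 in Type-1 and 5.75, 5.78 and 5.20 in Naive-like cells. Its IEL arrays were close together and all above the lymph node arrays, with differences of 1.72 ± 0.23 (adjusted p = 0.00055) and 1.79 ± 0.23 (adjusted p = 0.000354). Krt18 measured 5.72, 6.45 and 5.26 in IELs, against 4.12, 4.11 and 3.51 in Type-1 and 4.29, 4.63 and 4.12 in Naive-like cells. Its differences were 1.89 ± 0.30 (adjusted p = 0.00221) and 1.46 ± 0.30 (adjusted p = 0.0111), with the IEL arrays above all lymph node arrays. A dimmer row for Krt18 measured 2.71, 2.74 and 2.61 in IELs and did not differ in this direction, at -0.22 ± 0.22 against Type-1 and -0.23 ± 0.22 against Naive-like cells. With the mean of both rows the differences were 0.84 and 0.62 and neither passed (adjusted p = 0.0612 and 0.201). The call against Naive-like cells was also lost without Naive-like replicate 3 (adjusted p = 0.0577).

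Krt19 and Krt20 mark simple epithelium and the differentiated cells at the villus tip. Krt19 measured 4.78, 6.64 and 5.03 in IELs, against 3.53, 4.21 and 4.15 in Type-1 and 3.77, 4.11 and 3.76 in Naive-like cells. Replicate 2 was far above the other IEL arrays, which still exceeded the lymph node arrays. Krt20 measured 4.17, 4.77 and 4.60 in IELs, against 3.86, 3.42 and 3.49 in Type-1 and 3.65, 3.42 and 3.0 in Naive-like cells. Both passed narrowly against Type-1 cells, Krt19 at 1.52 ± 0.40 (adjusted p = 0.0498) and Krt20 at 0.92 ± 0.24 (adjusted p = 0.0438). Against Naive-like cells Krt19 differed by 1.61 ± 0.40 (adjusted p = 0.0369) and Krt20 by 1.16 ± 0.24 (adjusted p = 0.0116). Krt19 kept its call against Type-1 cells only without IEL replicate 1, and lost it without any other single array (adjusted p up to 0.163). Krt20 lost that call without IEL replicate 2 or 3, Type-1 replicate 2 or 3, or Naive-like replicate 1 or 2 (up to 0.176). Against Naive-like cells Krt19 lost its call without IEL replicate 2 or any Naive-like array (up to 0.131), and Krt20 without IEL replicate 2 or 3 or Naive-like replicate 3 (up to 0.0659).

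Lgals4, a galectin of the gut epithelium, measured 7.58, 8.51 and 6.99 in IELs, against 6.35, 5.91 and 5.99 in Type-1 and 5.27, 5.97 and 6.18 in Naive-like cells. All IEL arrays were higher than all lymph node arrays, by 1.61 ± 0.35 (adjusted p = 0.0192) and 1.88 ± 0.35 (adjusted p = 0.00644). The call against Type-1 cells was lost without IEL replicate 2 or Type-1 replicate 2 (adjusted p up to 0.0694). Vil1, the actin-bundling villin of microvilli, ranged from 3.71 to 4.57 in IELs, against 3.41 to 3.69 in Type-1 and 3.28 to 3.76 in Naive-like cells, and did not pass (0.46 ± 0.25 and 0.57 ± 0.25, adjusted p = 0.413 and 0.324). Phgr1, a small protein rich in proline, histidine and glycine, ranged from 4.44 to 4.81 in IELs, against 4.44 to 4.84 in Type-1 and 4.34 to 4.54 in Naive-like cells.

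Among the 4 brush border enzymes, 2 were higher than in Type-1 cells and 3 than in Naive-like cells. Anpep, aminopeptidase N, measured 5.95, 7.36 and 5.75 in IELs, against 3.37, 4.24 and 3.81 in Type-1 and 3.35, 4.17 and 4.02 in Naive-like cells. Sis, sucrase-isomaltase, measured 4.45, 5.35 and 4.99 in IELs, against 3.43, 3.35 and 3.35 in Type-1 and 3.27, 3.12 and 3.31 in Naive-like cells. For both genes every IEL array lay above every lymph node array, while the lymph node subsets overlapped for Anpep. Anpep was higher by 2.55 ± 0.39 (adjusted p = 0.00199) and 2.51 ± 0.39 (adjusted p = 0.00197), and Sis by 1.56 ± 0.23 (adjusted p = 0.00126) and 1.70 ± 0.23 (adjusted p = 0.000569). Without the 3 coded arrays Sis missed the threshold against Type-1 cells (1.51, adjusted p = 0.0551). Alpi, intestinal alkaline phosphatase, ranged from 4.69 to 6.88 in IELs, against 3.98 to 4.29 in Type-1 and 3.71 to 4.01 in Naive-like cells. It passed against Naive-like cells (1.71 ± 0.43, adjusted p = 0.0379) and not against Type-1 cells (1.38 ± 0.43, adjusted p = 0.105). Its call was lost without IEL replicate 3, Type-1 replicate 3 or any Naive-like array (adjusted p up to 0.128). Lct, lactase, a brush border enzyme most abundant before weaning, ranged from 3.68 to 4.40 in IELs, against 3.80 to 4.19 in Type-1 and 3.81 to 4.20 in Naive-like cells.

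Of the 7 lipid and retinol handling genes, 3 were higher than in Type-1 and 4 than in Naive-like cells. Fabp1 and Fabp2 encode the fatty acid binding proteins of enterocytes, and of all 39 transcripts Fabp1 differed most from Type-1 and Fabp2 most from Naive-like cells. Fabp1 measured 8.38, 7.98 and 6.45 in IELs, against 3.46, 3.03 and 2.81 in Type-1 and 3.11, 5.35 and 4.67 in Naive-like cells. Fabp2 measured 8.26, 7.42 and 6.52 in IELs, against 3.81, 3.79 and 3.34 in Type-1 and 3.33, 3.29 and 3.78 in Naive-like cells. Both had their highest value on IEL replicate 1 and their lowest IEL value on replicate 3, and for Fabp1 Naive-like replicates 2 and 3 lay above the other lymph node arrays. Fabp1 was higher by 4.50 ± 0.55 than in Type-1 cells (a ratio of 22.7, adjusted p = 0.000323) and by 3.23 ± 0.55 than in Naive-like cells (9.36, adjusted p = 0.00344). Fabp2 was higher by 3.76 ± 0.36 (13.5, adjusted p = 4.82e-05) and by 3.94 ± 0.36 (15.3, adjusted p = 2.72e-05).

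Rbp2, the retinol binding protein of enterocytes, measured 6.23, 6.47 and 5.86 in IELs, against 4.97, 4.97 and 4.45 in Type-1 and 5.03, 4.70 and 4.36 in Naive-like cells. The 3 IEL arrays were close and above all others, by 1.39 ± 0.25 (adjusted p = 0.00483) and 1.49 ± 0.25 (adjusted p = 0.00281). Its other row differed by -0.01 against Type-1 and 0.31 against Naive-like cells, and the mean of both rows gave 0.69, which did not pass (adjusted p = 0.104), and 0.90 (adjusted p = 0.0287). Mttp, which loads lipid onto apolipoprotein B, ranged from 4.81 to 5.85 in IELs, against 3.89 to 4.47 in Type-1 and 3.76 to 4.27 in Naive-like cells. It passed against Naive-like cells (1.15 ± 0.29, adjusted p = 0.0364) and not against Type-1 cells (1.01 ± 0.29, adjusted p = 0.0687), and the call was lost without IEL replicate 2 or 3 or any Naive-like array (adjusted p up to 0.162). None of the 3 apolipoproteins of chylomicrons passed. Apob differed by 0.43 ± 0.32 and 0.50 ± 0.32 and Apoa4 by 0.68 ± 0.25 and 0.49 ± 0.25, with the smallest adjusted p at 0.169. Apoa1 ranged from 4.99 to 5.23 in IELs, against 4.72 to 5.19 in Type-1 and 4.96 to 5.03 in Naive-like cells.

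Goblet and secretory products split, with 3 of 6 higher against each subset and 2 of these in both. Tff3, the trefoil peptide secreted with mucus, measured 6.51, 6.34 and 5.79 in IELs, against 4.18, 4.40 and 4.01 in Type-1 and 4.26, 4.03 and 3.77 in Naive-like cells. Agr2, a disulfide isomerase needed to fold mucin, measured 5.46, 6.32 and 5.01 in IELs, against 3.98, 3.64 and 3.69 in Type-1 and 3.98, 3.61 and 3.56 in Naive-like cells. No IEL value of either gene fell into the lymph node range. Tff3 was higher by 2.02 ± 0.23 (adjusted p = 0.000212) and 2.20 ± 0.23 (adjusted p = 9.66e-05), and Agr2 by 1.82 ± 0.29 (adjusted p = 0.00266) and 1.88 ± 0.29 (adjusted p = 0.00193).

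Fcgbp, a mucus protein, ranged from 4.86 to 6.66 in IELs, against 4.17 to 4.24 in Type-1 and 4.05 to 4.46 in Naive-like cells. It passed against Type-1 cells (1.44 ± 0.36, adjusted p = 0.0387) and just missed against Naive-like cells (1.35 ± 0.36, adjusted p = 0.0519). Its call remained only without IEL replicate 1 and was lost without any other single array (adjusted p up to 0.0989). Clca1, a secreted goblet metalloprotease, ranged from 4.14 to 6.00 in IELs, against 3.65 to 4.25 in Type-1 and 3.32 to 3.87 in Naive-like cells. It passed against Naive-like cells (1.63 ± 0.39, adjusted p = 0.0296) and not against Type-1 cells (1.29 ± 0.39, adjusted p = 0.0927), and the call was lost without IEL replicate 2 or 3 or any Naive-like array (adjusted p up to 0.13).

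Muc2, the main gel-forming mucin, read differently on its 2 rows. The row of highest mean ranged from 4.67 to 6.26 in IELs, against 4.75 to 5.36 in Type-1 and 4.78 to 5.22 in Naive-like cells, and did not pass (0.47 ± 0.34 and 0.57 ± 0.34, adjusted p = 0.555 and 0.543). The other row measured 4.57, 7.05 and 6.33 in IELs, against 3.90, 4.17 and 3.49 in Type-1 and 4.35, 3.38 and 3.85 in Naive-like cells. IEL replicates 2 and 3 were high on that row and replicate 1 lay just above the lymph node arrays. In a fit of all 41345 rows it differed by 2.13 ± 0.56 and 2.12 ± 0.56 (adjusted p = 0.109 and 0.112). Spink4, a protease inhibitor of goblet cells, differed by 0.56 ± 0.25 and 0.49 ± 0.25 and did not pass (adjusted p = 0.3 and 0.448).

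The other mucosal products showed the largest median differences of any role, 2.42 against Type-1 and 2.57 against Naive-like cells, with 3 and 4 of 4 higher. Dmbt1, a secreted scavenger receptor of mucosal surfaces, measured 5.29, 7.52 and 6.66 in IELs, against 3.23, 2.54 and 2.28 in Type-1 and 2.49, 3.36 and 2.12 in Naive-like cells. Pigr, the receptor that carries polymeric IgA across the epithelium, measured 5.21, 7.91 and 6.77 in IELs, against 3.90, 3.89 and 3.81 in Type-1 and 3.67, 3.95 and 3.78 in Naive-like cells. Muc13, a transmembrane mucin, measured 5.74, 6.95 and 5.96 in IELs, against 4.52, 4.32 and 3.61 in Type-1 and 4.03, 4.18 and 3.54 in Naive-like cells. In each of these genes IEL replicate 2 was highest, replicate 1 lowest of the IELs, and no IEL value fell into the lymph node range. Dmbt1 was higher by 3.80 ± 0.49 (a ratio of 13.9, adjusted p = 0.000469) and 3.83 ± 0.49 (14.2, adjusted p = 0.000393). Pigr was higher by 2.77 ± 0.48 (adjusted p = 0.00452) and 2.83 ± 0.48 (adjusted p = 0.00353), and Muc13 by 2.07 ± 0.33 (adjusted p = 0.00261) and 2.30 ± 0.33 (adjusted p = 0.00102). Without the 3 coded arrays Pigr passed in neither comparison, at differences of 2.67 and 2.75 (adjusted p = 0.124 and 0.125).

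Guca2b, uroguanylin, a peptide that sets salt and water secretion, ranged from 3.92 to 5.49 in IELs, against 3.51 to 4.01 in Type-1 and 3.30 to 3.63 in Naive-like cells. It passed against Naive-like cells (1.42 ± 0.35, adjusted p = 0.0331) and not against Type-1 cells (1.19 ± 0.35, adjusted p = 0.0789). That call was lost without IEL replicate 1 or 2 or any Naive-like array (adjusted p up to 0.147).

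Neither enteroendocrine gene passed in limma, and at an unadjusted p under 0.05 stood 0 and 1 of 2. Over all 22180 genes 3609 and 3150 stood under that threshold. Chga, chromogranin A of hormone granules, measured 5.52, 5.25 and 4.77 in IELs, against 4.81, 4.84 and 4.47 in Type-1 and 4.88, 5.05 and 4.68 in Naive-like cells. Chgb, chromogranin B, measured 3.83, 4.43 and 3.83 in IELs, against 3.27, 3.54 and 3.52 in Type-1 and 3.65, 3.24 and 2.56 in Naive-like cells. The 3 IEL arrays lay above the lymph node arrays for Chgb and overlapped them for Chga. Chga differed by 0.47 ± 0.23 and 0.31 ± 0.23 (adjusted p = 0.334 and 0.667), and Chgb by 0.59 ± 0.28 and 0.88 ± 0.28 (adjusted p = 0.324 and 0.113).

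Of the 3 crypt stem and progenitor genes 1 was higher. Olfm4, a secreted protein of crypt base cells, measured 6.20, 7.44 and 6.50 in IELs, against 3.81, 3.67 and 3.72 in Type-1 and 3.74, 4.13 and 3.93 in Naive-like cells. All IEL arrays were high, and the differences were 2.98 ± 0.28 (a ratio of 7.88, adjusted p = 4.74e-05) and 2.78 ± 0.28 (6.88, adjusted p = 6.45e-05). Lgr5, the R-spondin receptor that marks crypt stem cells, measured 2.93, 3.33 and 2.90 in IELs, against 3.57, 3.48 and 3.12 in Type-1 and 3.42, 3.37 and 3.29 in Naive-like cells. IEL replicates 1 and 3 lay under all of its lymph node arrays and replicate 2 within their range, and the differences did not pass (-0.34 ± 0.20 and -0.30 ± 0.20, adjusted p = 0.464 and 0.61). Its other row measured 3.47, 3.02 and 3.10 in IELs and differed in the other direction, by 0.05 ± 0.21 and 0.14 ± 0.21, and did not pass either. Ascl2, a transcription factor of the same stem cells, measured 4.16, 3.80 and 3.60 in IELs, against 3.62, 3.76 and 3.81 in Type-1 and 3.67, 3.62 and 3.62 in Naive-like cells, and its subsets overlapped.

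**Figure D2:**
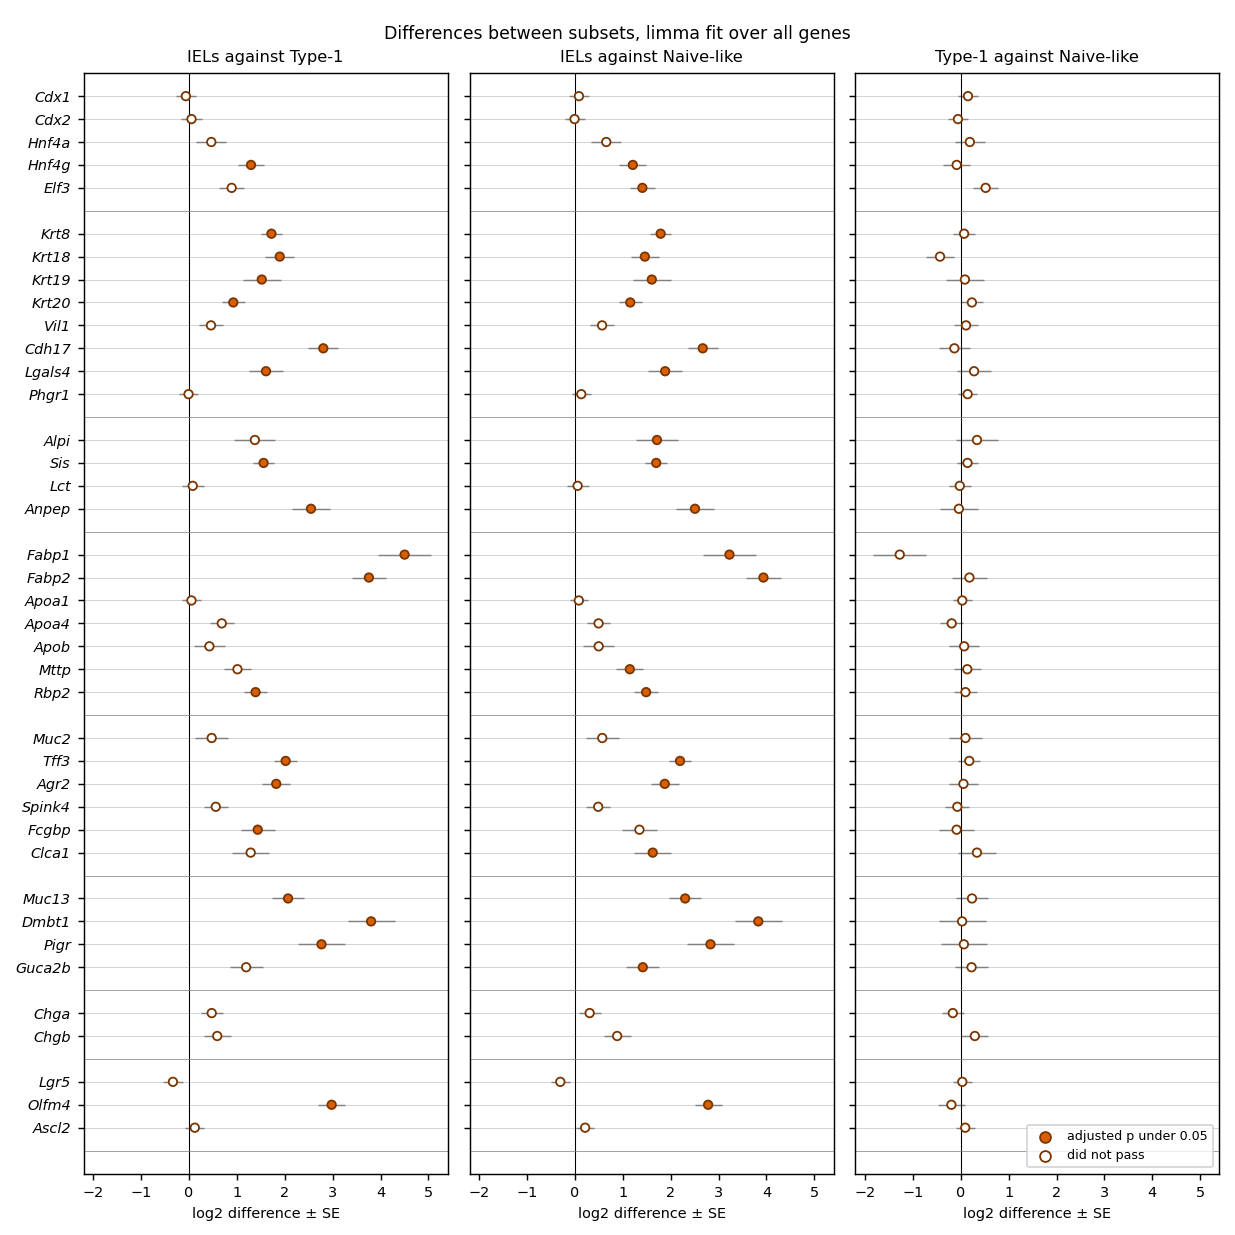
Difference of each transcript (log2, with its standard error from limma, n = 3 arrays per subset) for IELs against Type-1, IELs against Naive-like and Type-1 against Naive-like cells, with filled points for those that passed the test. In the IEL panels 19 and 23 of 39 passed, all higher in IELs, and in the third panel 0 passed.

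Between the lymph node subsets few genes of any kind differed. In Type-1 against Naive-like cells 0 of 39 passed in either direction in limma, beside 0.212% of all genes higher, 0.0721% lower and 0.284% either. The members' count thus lies at the share of all genes. An unadjusted p under 0.05 was reached by 1 member and by 1437 of all 22180 genes. That member was Fabp1, at -1.27 ± 0.55 (adjusted p = 0.731 in limma). The median difference of the 39 was 0.09, beside 0.03 over all genes, and 27 of 39 were positive.

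The 3 IEL arrays differed among themselves in how high these transcripts stood. Replicate 2 was the highest IEL array for 29 of the 39, replicate 1 for 8 and replicate 3 for 2, while over all genes these shares were 38.5% for replicate 1, 31.9% for replicate 2 and 29.5% for replicate 3. Replicate 1 was the lowest for 21, replicate 3 for 17 and replicate 2 for 1, beside 39.7%, 34.2% and 26.1% of all genes. Set against the mean of the 6 lymph node arrays, the median member stood 0.76 higher on replicate 1, 1.78 on replicate 2 and 1.11 on replicate 3, and the median of all genes lay between -0.05 and -0.01. Above all 6 lymph node arrays stood 27, 34 and 28 of 39 on IEL replicates 1, 2 and 3, beside 21.4%, 17.0% and 18.0% of all genes.

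By role, the median above the lymph node mean on replicates 1, 2 and 3 was 0.49, 2.23 and 1.20 for goblet products and 1.71, 3.50 and 2.43 for the other mucosal products. For brush border enzymes it was 0.91, 2.46 and 1.39, and for structural and surface genes 1.21, 2.22 and 1.12. Transcription factors stood at 0.18, 1.22 and 0.35, and lipid and retinol handling at 0.76, 1.72 and 0.82. In each of these 6 roles replicate 2 had the highest median. The enteroendocrine medians were 0.63, 0.80 and 0.26, and the crypt medians 0.47, 0.11 and -0.09.

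**Figure D3:**
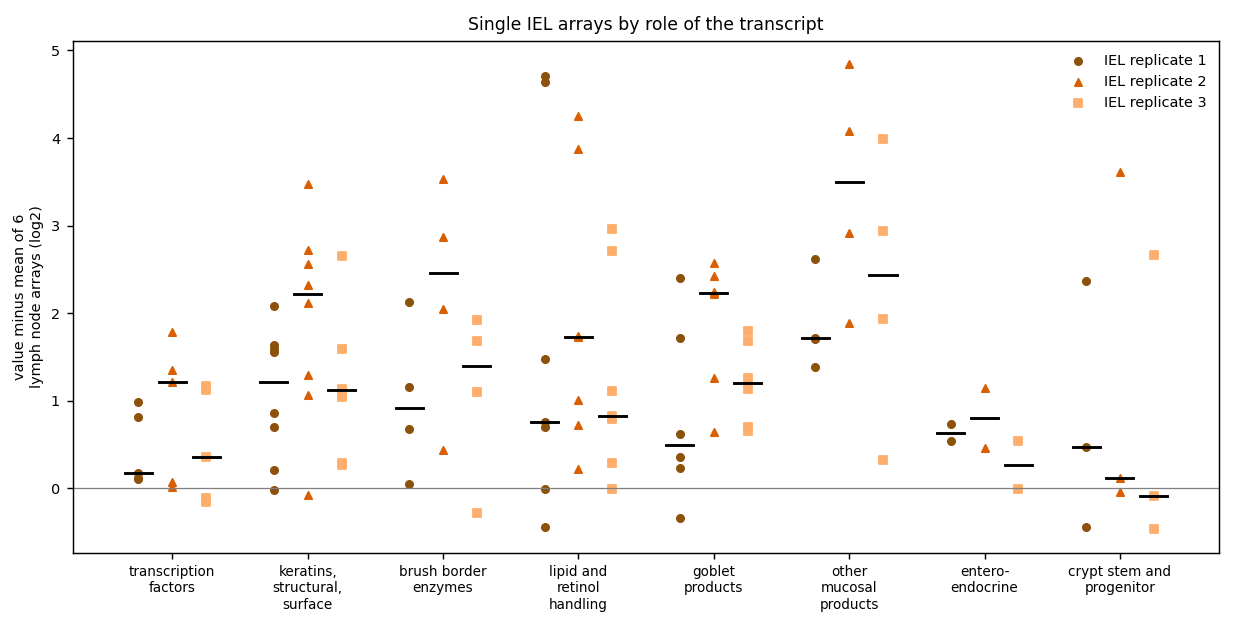
Value of each transcript on each IEL array minus its mean over the 6 lymph node arrays (log2), by role, with a bar at the median of each array. Replicate 2 has the highest median in 7 of the 8 roles, and the 2 highest points of replicate 1 are Fabp2 and Fabp1.

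The order of the arrays was not the same for every transcript. The value on IEL replicate 2 minus that on replicate 1 lay between -0.84 for Fabp2 and 2.70 for Pigr, with a median of 0.73 over the 39 and of 0.03 over all genes. Replicate 2 was higher for 30 and replicate 1 for 9. The 5th to 95th percentile of this difference over all genes was -0.82 to 0.87, and 17 members lay above it and 1 below. Fabp1, Fabp2 and Tff3 were higher on replicate 1, while Pigr, Dmbt1, Alpi, Krt19 and the goblet genes Clca1 and Fcgbp were higher on replicate 2. Single arrays of 1 group were not tested against each other.

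**Figure D4:**
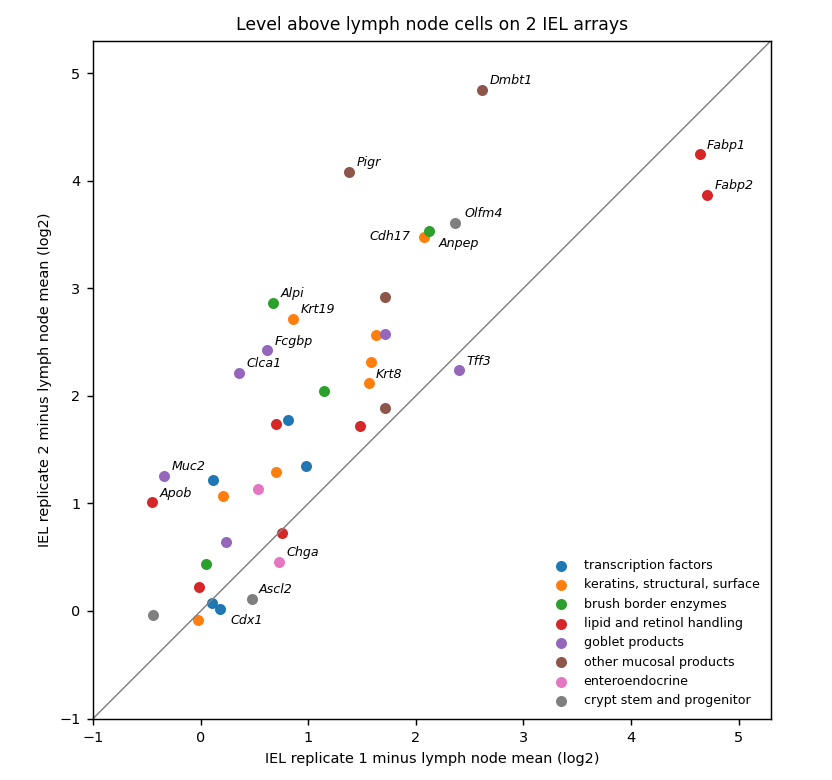
Value of each transcript minus its lymph node mean (log2) on IEL replicate 1 (horizontal) and IEL replicate 2 (vertical), coloured by role, with the line of equality. Most points lie above the line, Pigr farthest from it, and Fabp1, Fabp2 and Tff3 lie below it.

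With single arrays left out, the counts of members changed, and so did the share of all genes that were higher. Without IEL replicate 2, 14 of 39 were higher than in Type-1 cells (2.32% of all genes) and 17 than in Naive-like cells (2.51%). Without IEL replicate 1 these counts were 23 (4.10%) and 24 (3.84%). Without Naive-like replicate 3, 15 were higher than in Naive-like cells (2.88%), against 23 with it (3.57%). Without the 3 arrays that share a description code 14 were higher than in Type-1 cells (1.87%) and 15 than in Naive-like cells (1.65%). Besides Elf3, Sis and Pigr, calls were lost there for Hnf4g, Krt19 and Krt20 in both comparisons. Alpi, Mttp and Clca1 lost theirs against Naive-like cells, and Fcgbp against Type-1 cells (adjusted p up to 0.397, for Clca1, in limma). Between the 3 coded arrays alone, 34 and 36 of the 39 members were higher in the IEL array, which was not tested. All 19 and all 23 called members were among them, but these arrays were part of the fit that called them. No called member changed sign under any of the 21 alternatives.

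Other epithelial genes outside the 39 were read from a further list, 72 of 78 of them measured. Of these 18 were higher than in Type-1 and 20 than in Naive-like cells, 0 were lower, and the median differences were 0.20 and 0.25. All 6 Paneth cell genes were higher in both comparisons, led by the defensins Defa22 (6.76 ± 0.29 and 7.20 ± 0.29) and Defa24. In the absorptive class 5 of 22 were higher in both, among them the lectin Reg3b (3.21 ± 0.38 and 3.57 ± 0.38) and Reg1 (3.36 ± 0.47 and 3.17 ± 0.47). The others were Reg3g, Fabp6 and Mgam. Of the solute carriers in this class, Slc5a1, Slc2a2, Slc2a5, Slc15a1 and Slc6a19 did not pass. In the goblet class 3 of 9 were higher in both, including Zg16, a lectin of mucus granules, and Klk1 (2.62 ± 0.30 and 2.21 ± 0.30). Among general epithelial genes 4 and 5 of 9 were higher, with Epcam at 1.92 ± 0.21 and 1.57 ± 0.21 and Cdh1 at 3.46 ± 0.37 and 3.71 ± 0.37. IELs themselves are known to express Cdh1. None of 12 enteroendocrine genes, with Sct and Neurog3 the farthest apart, passed in limma (0 and 2 at an unadjusted p under 0.05). None of 5 tuft genes, with Il25 and Trpm5 the farthest apart, passed either (0 and 0). At the same unadjusted threshold stood 3609 and 3150 of all 22180 genes. Of 9 stem genes 0 and 1 passed. The 1 was Rnf43, a ubiquitin ligase of Wnt receptors, at 1.39 ± 0.29 against Naive-like cells (adjusted p = 0.014) and 0.78 ± 0.29 against Type-1 cells (adjusted p = 0.192). Znrf3, its relative, was -0.54 ± 0.32 and -0.80 ± 0.32 and did not pass (adjusted p = 0.463 and 0.257).

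Markers of other cell types were read beside these results. None of 5 B-cell (among them Cd79b and Cd22), 5 plasma-cell (Xbp1 and Mzb1) or 6 stromal markers (Vim and Col1a1) passed in limma in either IEL comparison. At an unadjusted p under 0.05 stood 0, 2 and 1 of them against Type-1 and 0, 1 and 0 against Naive-like cells. Over all 22180 genes 3609 and 3150 did, so these counts are not read as results about the cell types. Of 7 myeloid markers (Itgax and Cd68 among them) Itgax alone was higher, by 3.94 and 4.86, with Csf1r between 3.56 and 4.22, Adgre1 between 3.18 and 3.96 and Cd14 between 2.39 and 3.06 over all 9 arrays. The summed level of the 7 was 33.6 to 34.7 in IELs, against 29.1 to 31.5 in Type-1 and 26.3 to 30.7 in Naive-like cells. This sum includes Itgax, and the median difference of the 7 was 0.06 and -0.03. Of 5 mast cell markers (Kit and Cpa3 among them) Kit alone was higher, by 4.44 and 3.87, with Cpa3 between 3.26 and 4.31 and Mcpt1 between 2.51 and 3.23. The 5 summed to 21.2 to 21.8 in IELs, against 15.2 to 18.1 in Type-1 and 15.9 to 17.0 in Naive-like cells. That sum includes Kit, and the median difference of the 5 was 0.03 and 0.43. Of 4 endothelial markers (Pecam1 and Kdr among them) Pecam1 was lower in IELs (differences of -1.73 and -2.81). Heat shock transcripts were also higher in IELs, 7 and 8 of 8 of them, Hspa1a and Hspa1b included. The summed level of the 8 was 79.5 to 80.1 in IELs, against 63.9 to 70.0 in Type-1 and 61.1 to 67.1 in Naive-like cells. Hspa1a measured 12.19, 12.44 and 12.00 in IELs, against 10.80, 9.38 and 9.20 in Type-1 and 8.54, 9.78 and 7.77 in Naive-like cells. IELs were shaken from gut pieces in a warm buffer with DTT and EDTA and collected on Percoll, while lymph nodes were mashed, per the labels' protocols. The part of these markers and transcripts in the epithelial differences was not tested.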

How the data were processed

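RNA of 9 samples was measured, 1 Affymetrix Mouse Gene 2.0 ST array each, and titles gave the groups. The authors deposited log2 values for 41345 array rows. The submitters' processing notes name oligo and RMA. Their versions, the genome build and any filters were not given in the sources used here. No detection calls came with the values, and RMA compresses differences of dim genes. A gene was read from rows that the platform annotation ties to 1 symbol (23521 rows, 22180 genes), taking the brightest row on average where there were several.

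The test was limma 3.58.1 with R 4.3.3 (1 mean per subset over 9 arrays, eBayes without trend, two-sided, Benjamini-Hochberg over 22180 genes, threshold 0.05). The fit had 6 residual degrees of freedom, and the median standard error was 0.24, so the number of arrays limits the precision. Standard errors rest on 1 spread per gene over the 3 subsets, though subsets can differ in spread. The SD of Pigr was 1.36 in IELs, 0.05 in Type-1 and 0.14 in Naive-like cells. For Elf3 it was 0.18, 0.41 and 0.40. Where IEL arrays vary most, the shared spread is smaller than theirs. On simulated data the fit called 28% of genes with a true difference of 1 against Type-1 and 30% against Naive-like cells. With a true difference of 2 it called 92% and 86%. A member that did not pass is therefore not shown to be unchanged. Across genes the correlation was 0.947 to 0.982 between arrays of 1 subset, and 0.912 to 0.975 otherwise.

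The members, the other lists and the tests were chosen with earlier results of these data known. All 39 members are named by role, with every array's value for those that passed in both IEL comparisons and for transcription factor, enteroendocrine and crypt genes. From the other epithelial list the 2 genes of largest difference per class are named, and further absorptive genes were named after their values were seen. From each marker list the 2 of highest IEL mean are named, a choice of names and not a comparison of levels, and markers beyond these were added after their values were seen. The sorting gates are not given beyond the antibodies. Tables were made with Python 3.11.15 and pandas 2.3.3, and plots with matplotlib 3.10.9.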

Additional observations from a re-analysis of the deposited data

How the results depend on the processing

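With 3 arrays per subset, 21 alternatives were run, and the number of members higher in IELs ranged from 14 to 23 against Type-1 and from 15 to 25 against Naive-like cells, with 0 lower in each. The share of all genes higher ranged from 1.87% to 5.04% and from 1.65% to 6.11%, leaving the dim filter aside. Arrays without the shared description code gave 15 against Naive-like cells, compared with 23 over all arrays. Leaving out 1 array gave 14 to 23 against Type-1 and 15 to 24 against Naive-like cells. Array rows adjusted all together gave 14 against Type-1 and 16 against Naive-like cells. With dim genes removed, 26 members are tested, 12 of them kept through the IEL arrays, and no count is read from them. With the replicate number as a block 20 members were higher than in Type-1 and 24 than in Naive-like cells, and 0 differed between Type-1 and Naive-like cells. Only Krt20 against Type-1 cells lost its call under the block (adjusted p = 0.051). Samples of the same number deviated together in 6 of 9 pairs only (r over 0.1, range -0.01 to 0.38), so the numbers were not taken as pairs. The highest r were those of the replicate 3 arrays, which share the description code (0.23, 0.30 and 0.38). The main fit had no term for this code. With the code as a term, 20 members were higher than in Type-1 and 22 than in Naive-like cells. The median member difference ranged from 0.90 to 1.41 against Type-1 and from 1.03 to 1.47 against Naive-like cells, leaving the dim filter aside. Called under every alternative that tested them were 10 of the 19 members against Type-1 and 13 of the 23 against Naive-like cells. Type-1 against Naive-like cells gave 0 members in every alternative. Whether dim members such as Cdx2 and Lgr5 were above background cannot be read from values without detection calls.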
